A study of Homo sapiens with 6 samples.

Results

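Kinesins are motor proteins that use ATP to move along microtubules or to take them apart. A set of them builds the spindle, moves chromosomes and completes cell division, and the genes of these mitotic kinesins are typically transcribed late in the cell cycle. Others carry vesicles, organelles and RNA through the cytoplasm or work at the cilium. The kinesin genes were taken from the deposited RNA-seq table by their symbols, KIF followed by a number with an optional letter or digit, together with KIFC1, KIFC2 and KIFC3. This gave 42 genes among the 26822 gene symbols in the table.

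MCF10A is an established, non-tumourigenic line of human breast epithelial cells. Cells received 30 nM of a non-targeting siRNA (siNT) or of siRNAs against PAX9, a paired box transcription factor (siPAX9), and RNA was collected after 72 h from 3 samples of each group. The authors' table holds 1 pooled FPKM per group (fragments counted against transcript length in kilobases and the size of the library). Since each value stands for a whole group, the spread among replicates is unknown and no difference was tested. The table gives no read counts, so the depth behind a single FPKM is unknown. The 31 kinesins with an FPKM of 1 or more in a group all carry the authors' mark for enough reads. PAX9 itself had an FPKM of 2.80 in siNT against 0.325 in siPAX9, a log2 ratio of -3.10. Its locus on chromosome 14, from 37126773 to 37642998 on UCSC hg19, also spans SLC25A21.

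The mitotic kinesins were lower in siPAX9 cells and most transport kinesins were not. Changes are given as the log2 of the siPAX9 FPKM over the siNT FPKM, and a gene was called when it differed at least 2-fold. Calls were made among genes that reached an FPKM of 1 in their higher group, as 31 of the 42 kinesins did. Of these 31 genes, 14 were at least 2-fold lower, against 7.22% of the 13622 named genes that passed the same filter. A further 2 were at least 2-fold higher, against 7.75% of those genes. All 13 mitotic kinesins that passed the filter were among the 14 called lower, with a median log2 ratio of -1.69. This class leaves out KIF2A, which acts in mitosis and outside it. With KIF2A counted as mitotic, 13 of 14 were called lower and the median was -1.64. With 1 added to each FPKM, KIF22 (-0.94), KIF23 (-0.96) and KIF4B (-0.93) fell short of 2-fold. The 18 other kinesins had a median of 0.39, and the median of all named genes was -0.07. In bulk RNA, fewer cells in mitosis and less kinesin mRNA per cell cannot be told apart.

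The filter was passed in both groups by 24 kinesins, in siNT alone by KIF15, KIF21B, KIF24, KIF4B and KIF9, and in siPAX9 alone by KIF3C and KIF7. A gene that passes in its higher group alone is more likely to differ, so the counts above describe the genes that passed and not the family as a whole. The other 11 kinesins stayed below the filter. KIF12, KIF19, KIF1A, KIF25 and KIF2B were listed at 0 in both groups. KIF17, KIF26A, KIF26B, KIF5A, KIF5C and KIF6 had at most an FPKM of 0.150 in either group.

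**Figure D1:**
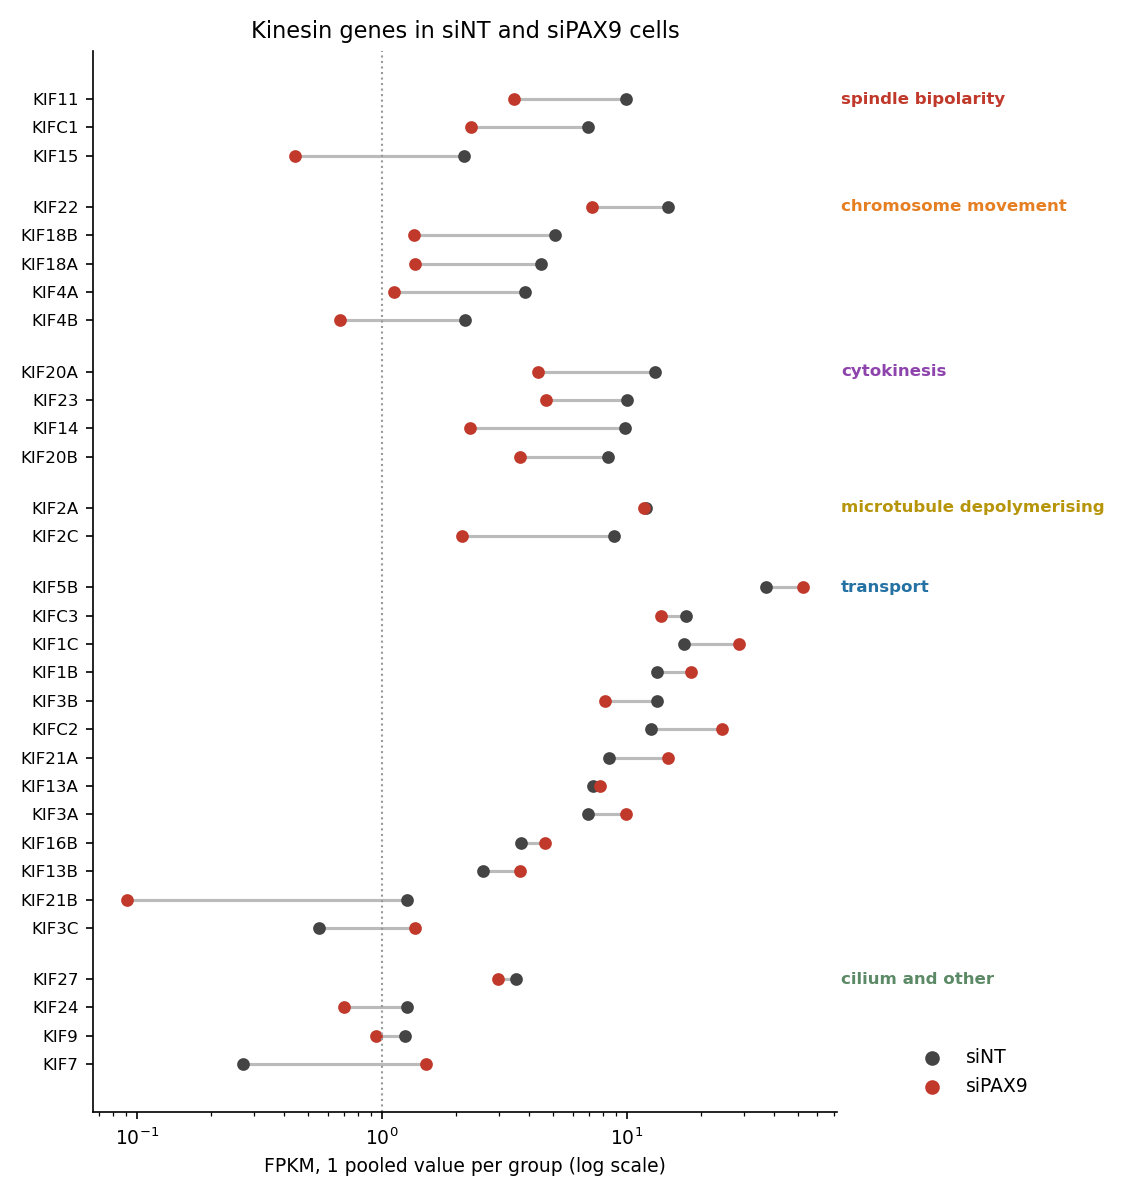
FPKM of the 31 kinesin genes that passed the filter, on a log scale, with 1 pooled value per group (dark points siNT, red points siPAX9) and the genes grouped by role. The dotted line marks an FPKM of 1; the siPAX9 point lies to the left of the siNT point for all 13 mitotic kinesins, while KIF2A shows nearly the same FPKM in both groups.

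The kinesins of spindle bipolarity were lower in siPAX9. KIF11 slides antiparallel microtubules apart to make the spindle bipolar. Its FPKM was 9.89 in siNT against 3.48 in siPAX9, a log2 ratio of -1.51. KIF15, which can hold the poles apart alongside KIF11, had an FPKM of 2.17 in siNT against 0.440 in siPAX9. Its log2 ratio of -2.30 was the lowest among the mitotic kinesins, and 176 of the 13622 genes had a lower one. KIF15 passed the filter in siNT alone, and with 1 added to each FPKM its log2 ratio was -1.14 and 8 of the 13 mitotic kinesins were lower, among them KIF14 (-1.72) and KIF11 (-1.28). KIFC1, a minus-end-directed motor that focuses spindle poles, had an FPKM of 6.91 in siNT against 2.31 in siPAX9, a log2 ratio of -1.58.

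The kinesins that position chromosomes followed the same direction. KIF18A dampens chromosome movements at the spindle equator, and its FPKM was 4.44 in siNT against 1.37 in siPAX9. KIF18B, which acts at the plus ends of astral microtubules, had an FPKM of 5.09 in siNT against 1.35 in siPAX9. Their log2 ratios were -1.70 and -1.91. KIF22, a chromosome-binding motor that pushes chromosome arms outward, was the most abundant mitotic kinesin in siNT, with an FPKM of 14.8 against 7.21 in siPAX9. At -1.04 it was also the mitotic kinesin nearest to the 2-fold threshold, and it did not reach the threshold once ratios were centred on the median of all named genes (-0.97).

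KIF4A binds chromosomes and, with PRC1, limits the length of the central spindle. It had an FPKM of 3.86 in siNT against 1.12 in siPAX9, a log2 ratio of -1.78, or -1.20 with 1 added to each FPKM. KIF4B is an intronless copy of KIF4A on chromosome 5, annotated as a retrogene with 1 exon. The table lists it at chr5:154393315-154397692 on hg19. It had an FPKM of 2.18 in siNT against 0.675 in siPAX9, a log2 ratio of -1.69. The longest annotated transcripts of the 2 genes aligned over 4345 bases at 95.3% identity, and no other pair of kinesin transcripts aligned over more than 50 bases at 90% identity or above. Reads from such copies can be assigned to either gene, so the split between KIF4A and KIF4B is uncertain. KIF4B stood at 0.566 of the KIF4A FPKM in siNT and at 0.603 in siPAX9.

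All 4 kinesins of cytokinesis were called lower, against 7.22% of all named genes. KIF14, which works with citron kinase at the midbody, had an FPKM of 9.82 in siNT against 2.30 in siPAX9, a log2 ratio of -2.10. KIF20A brings the chromosomal passenger complex to the central spindle, and its FPKM was 13.0 in siNT against 4.35 in siPAX9, a log2 ratio of -1.58. KIF20B, which acts late in cytokinesis, had 8.36 and 3.66 as its FPKM in siNT and siPAX9, a log2 ratio of -1.19. KIF23, the motor of the centralspindlin complex, had an FPKM of 10.1 in siNT against 4.68 in siPAX9, a log2 ratio of -1.11. Summed over the 4 genes, the FPKM was 41.2 in siNT against 15.0 in siPAX9. RACGAP1 is the partner of KIF23 in centralspindlin, and KIF23 stood at 0.607 of the RACGAP1 FPKM in siNT and 0.546 in siPAX9.

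The microtubule-depolymerising kinesins differed from each other. KIF2C corrects wrong attachments at centromeres, and its FPKM was 8.90 in siNT against 2.13 in siPAX9, a log2 ratio of -2.07. KIF2A acts at spindle poles and also outside mitosis. Its FPKM was 12.0 in siNT against 11.7 in siPAX9, a log2 ratio of -0.03 that became 0.03 after centring. The FPKM of KIF2C relative to KIF2A was therefore 0.743 in siNT against 0.182 in siPAX9. KIF2B was listed at 0 in both groups.

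Among the transport kinesins that passed the filter, 10 of 13 had a log2 ratio above 0 and the median was 0.51, and 1 was called in each direction. These calls are 7.69% of the 13 each way, near the 7.22% lower and 7.75% higher of all named genes. KIF5B, the heavy chain of conventional kinesin, was the most abundant kinesin in both groups. Its FPKM was 37.0 in siNT against 52.5 in siPAX9, a log2 ratio of 0.51. KIF1C, a motor for vesicles along microtubules, had an FPKM of 17.1 in siNT against 28.7 in siPAX9, a log2 ratio of 0.75. KIF1B, which carries mitochondria and synaptic vesicle precursors through different isoforms, had 13.3 and 18.2 in siNT and siPAX9. The FPKM of KIF13A was 7.25 in siNT against 7.80 in siPAX9, and that of KIF13B was 2.58 and 3.67. KIF16B, a motor of early endosomes, had an FPKM of 3.69 in siNT against 4.64 in siPAX9. These genes all lay within 2-fold.

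The minus-end-directed kinesins outside mitosis differed in sign. KIFC2 had an FPKM of 12.5 in siNT against 24.4 in siPAX9, and its log2 ratio of 0.96 was just short of the threshold, which it reached after centring (1.03). KIFC3 had an FPKM of 17.5 in siNT against 13.8 in siPAX9, a log2 ratio of -0.34.

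KIF21A and KIF21B, paralogs that restrain microtubule growth, were on opposite sides. The FPKM of KIF21A was 8.48 in siNT against 14.7 in siPAX9, a log2 ratio of 0.80. That of KIF21B was 1.27 in siNT against 0.0909 in siPAX9, and 78 of the 13622 genes had a ratio below its log2 value of -3.80. With 1 added to each FPKM the log2 ratio of KIF21B was -1.06. Among the kinesins that passed the filter, KIF21B was the only one outside the mitotic class called lower, and it passed in siNT alone. Without the filter KIF6, at an FPKM of 0.150 and 0.0337, would also be called lower.

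KIF3A, KIF3B and KIF3C encode motors that pair with each other and with the adaptor KIFAP3 to carry cargo, including into cilia. The FPKM of KIF3A was 6.97 in siNT against 9.95 in siPAX9, and that of KIF3B was 13.2 and 8.11. KIF3A therefore went from 0.527 of the KIF3B FPKM in siNT to 1.23 of it in siPAX9, although neither gene differed 2-fold. KIF3C, at an FPKM of 0.555 in siNT against 1.36 in siPAX9, was called higher with a log2 ratio of 1.29. Relative to KIFAP3, the FPKM of KIF3B was 1.79 in siNT and 1.04 in siPAX9, and that of KIF3A was 0.941 and 1.27. RACGAP1 and KIFAP3 were singled out as partners after the values were seen.

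The kinesins of the cilium and other roles had at most an FPKM of 3.53 in either group. KIF7, a regulator of Hedgehog signalling at the tip of the cilium, had an FPKM of 0.271 in siNT against 1.51 in siPAX9, a log2 ratio of 2.48. It was the other kinesin called higher, and neither KIF7 nor KIF3C reached 2-fold with 1 added to each FPKM. KIF27, a relative of KIF7, had an FPKM of 3.53 in siNT against 2.98 in siPAX9. KIF24, which acts at centrioles, had 1.27 and 0.700, and KIF9 had 1.24 and 0.949.

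**Figure D2:**
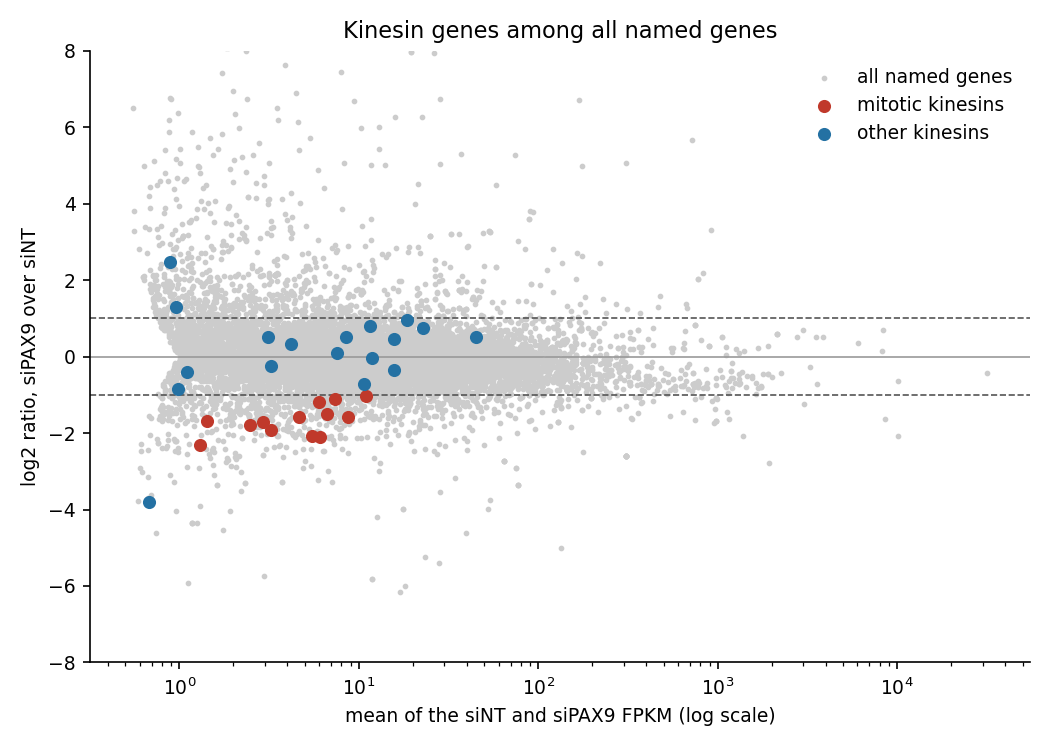
Log2 ratio of siPAX9 over siNT against the mean FPKM of the 2 groups (log scale) for the named genes that passed the filter (grey), the mitotic kinesins (red) and the other kinesins (blue), with dashed lines at 2-fold. The 13 mitotic kinesins all lie below the lower line, from -2.30 to -1.04; 10 genes beyond a log2 ratio of 8 in size and 130 genes listed at 0 in a group are not drawn.

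The makeup of the kinesin mRNA pool differed more than its size. Summed over all 42 genes, the FPKM was 259 in siNT against 241 in siPAX9. Mitotic kinesins made up 38.3% of that sum in siNT and 14.5% in siPAX9. Transport kinesins made up 54.5% and 78.0%, and KIF5B alone 14.3% and 21.8%. FPKM is scaled to transcript length, so these shares compare transcript abundance between genes within a group.

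**Figure D3:**
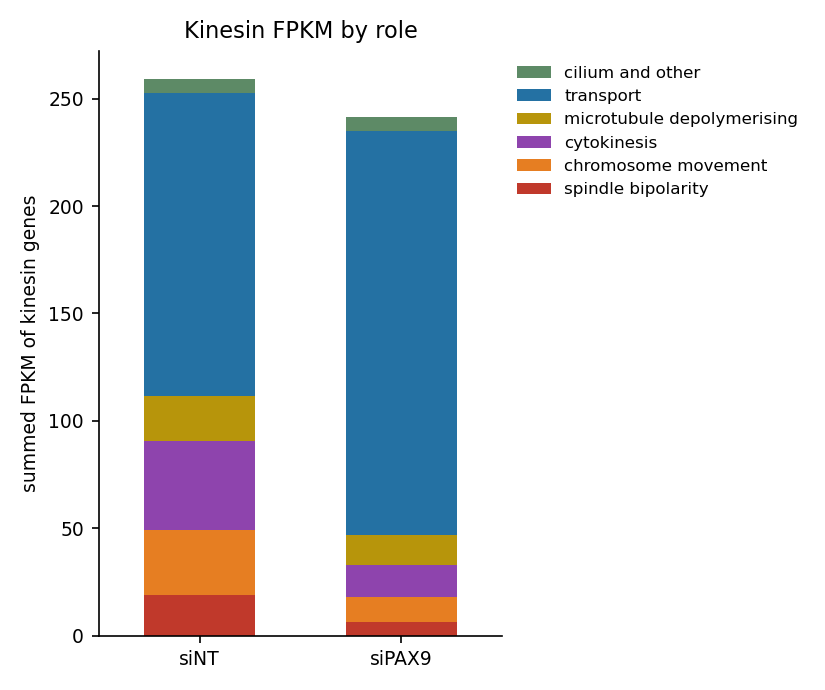
Summed FPKM of the 42 kinesin genes in siNT and siPAX9, 1 pooled value per gene and group, stacked by role. The total is 259 in siNT against 241 in siPAX9, and the transport share is 54.5% and 78.0%.

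Several kinesin loci span a neighbouring protein-coding gene, so their reads may be harder to assign. This held for 8 of the 31 genes, KIF4A, KIF20A, KIF23, KIF24, KIF7, KIF9, KIF2A and KIFC2. The KIF20A locus at chr5:137475459-137549032 spans BRD8 and CDC23, whose own log2 ratios were -0.26 and -0.40. The KIF23 locus at chr15:69591294-69740766 spans PAQR5, with a log2 ratio of -0.58. The KIF7 locus at chr15:90118818-90198682 spans TICRR, with a log2 ratio of 0.82. When these 8 genes were left out, an alternative chosen after seeing the data, 11 kinesins were called lower and 1 was called higher.

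Genes that work with the mitotic kinesins were mostly lower as well. Of 18 such partners, 11 were at least 2-fold lower (61.1%, against 7.22% of all named genes) and 0 were at least 2-fold higher. Their median log2 ratio was -1.46. The 18 include CENPE (-1.76), itself a kinesin motor, which the symbols used for the family leave out. The lowest were CIT, which encodes citron kinase, at -2.14 and HMMR, a spindle assembly factor, at -2.12. CIT passed the filter in siNT alone, at an FPKM of 3.64 against 0.827 in siPAX9. The highest were the microtubule end-binding gene MAPRE3 at 0.45 and the spindle pole gene NUMA1 at 0.18. Of 12 partners of transport kinesins, 0 were called lower and 1 was called higher (8.33%, near the 7.75% of all named genes), with a median of 0.27. That gene was TRAK2, an adaptor between kinesin and mitochondria, at 1.05, followed by MAPK8IP3 at 0.65. TRAK1, a relative of TRAK2, was at -0.18.

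Genes of the opposing motor and of the track were not called. Of the 18 dynein and dynactin genes that passed the filter, 0 were called in either direction, against 7.22% lower and 7.75% higher of all named genes, and their median was 0.04. They ran from DCTN6 at -0.40 and DCTN3 at -0.35 to DYNC1H1 at 0.45 and DYNC1LI2 at 0.47. Of the 10 tubulin genes, 0 were called, against the same shares, with a median of -0.13. At those shares, lists this short would hold few calls. The summed FPKM of the tubulin genes was 966 in siNT against 702 in siPAX9, and that of the dynein and dynactin genes was 704 and 685. TUBA1B at -0.86 and TUBB at -0.59 were the lowest, and TUBB2A at 0.58 and TUBA4A at 0.61 were the highest.

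**Figure D4:**
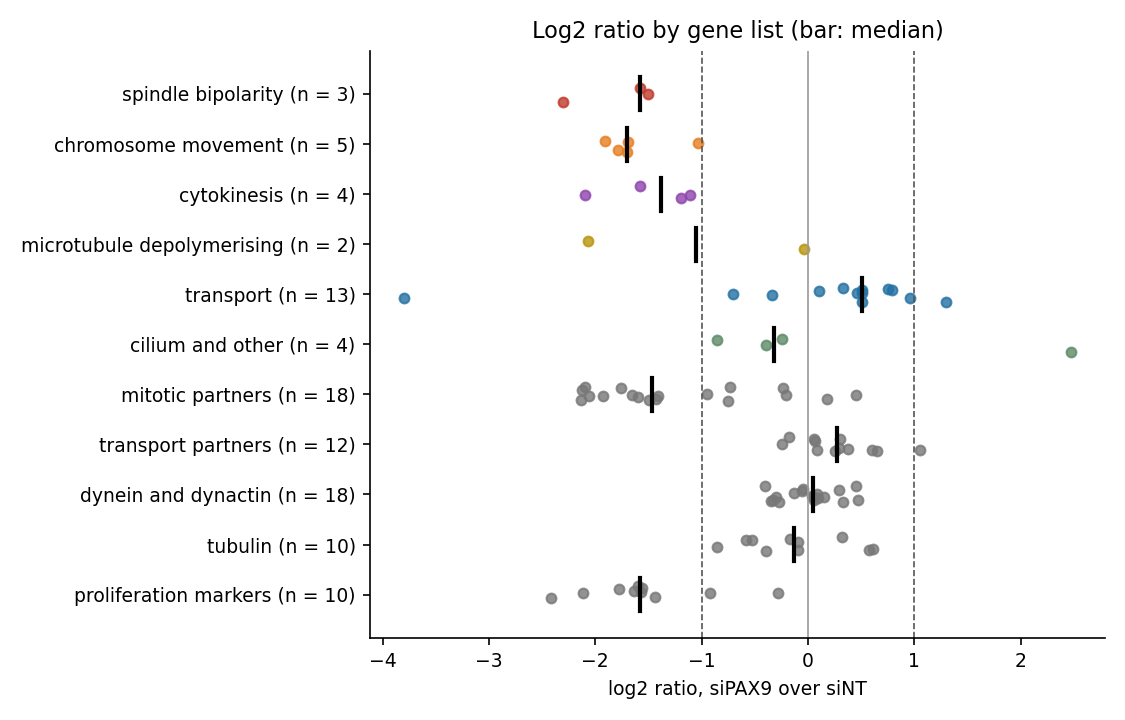
Log2 ratio of siPAX9 over siNT for genes that passed the filter, by list, with the number of genes in brackets, a black bar at the median and dashed lines at 2-fold. The mitotic partners (median -1.46) and proliferation markers (median -1.58) lie on the side of the mitotic kinesins, while the dynein and dynactin genes all lie between -0.40 and 0.47.

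Proliferation markers moved with the mitotic kinesins. Of 10 such genes, 8 were at least 2-fold lower (80.0%, against 7.22% of all named genes) and 10 were below 0, with a median of -1.58. Their summed FPKM was 248 in siNT against 88.9 in siPAX9, and PCNA was the most abundant in both groups, at 53.2 in siNT. TOP2A at -2.41 and CCNB2 at -2.12 were the lowest, and PCNA at -0.92 and RRM2 at -0.29 were the highest. The part of proliferation in the kinesin values was not tested.

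Markers of breast epithelial cells were abundant in both groups. The summed FPKM of the 11 markers was 4068 in siNT against 4673 in siPAX9, with KRT17 the most abundant at 1718 and 2088. Of them, CDH1 was called higher at 1.46 and EPCAM lower at -1.04 (9.09% each way, near the share of all named genes), with CDH3 at 0.75 and KRT18 at -0.83 next in order. Among 9 genes chosen as markers of other cell types or of oestrogen receptor expression, 7 had at most an FPKM of 0.317 in either group. CD3E, a T cell gene, was listed at 0 in both groups, and CDH5 and COL1A2 were listed at 0 in siNT. The other 2 were not low. CD14 had an FPKM of 14.4 in siNT against 56.5 in siPAX9, and DCN had 5.85 and 37.9. The summed FPKM of the 9 genes was 20.4 and 95.0, and their part in the kinesin values was not tested.

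Because the mitotic kinesins were lower together, their promoters were searched for short sequences. RefSeq promoters (GRCh38.p14), from 250 bases before the start site to 50 after it, were found for 34 of the 42 kinesins. The sequences were the cell cycle genes homology region (CHR), TTTGAA or TTCGAA, the CCAAT box, CCAAT, and a pair of the PAX9 binding sequences named in the study, GCGTGACCA and GCGGAACGG, each as an exact match on either strand. The other PAX9 sequences named there were not searched, and this window is shorter than the upstream region used in the study. A CHR was present in 11 of the 13 mitotic kinesins that passed the filter (84.6%), in 2 of the 13 other kinesins that passed and had a promoter (15.4%) and in 19.5% of all genes with a promoter. KIF13B, KIF21B, KIF27, KIFC2 and KIFC3 passed but had no promoter here, so KIF21B, which was called lower, is not in these counts. A CCAAT box was present in 11 of the 13 mitotic kinesins and in 4 of the 13 others, against 39.7% of all genes. Both were present in 10 of the 13 mitotic kinesins and 2 of the 13 others, against 7.85% of all genes. Among the 9690 named genes that passed the filter and had a promoter, 15.8% held a CHR, 43.4% a CCAAT box and 6.72% both. The mitotic counts include both KIF4A and its copy KIF4B. GCGTGACCA and GCGGAACGG matched in 0 of the 34 kinesin promoters, and in 0.194% and 0.267% of all genes. A match describes the sequence and is not evidence of binding, and the absence of a match says only that these letters are not in this window.

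The promoters of the 3 mitotic kinesins with the highest siNT FPKM that held a match are shown with that of KIF5B, the transport kinesin with the highest siNT FPKM. Each is the 200 bases before the start site on the strand of the gene, 5′ to 3′, with CHR and CCAAT matches in capitals (ATTGG is the CCAAT box on the other strand). KIF22 is at chr16:29790551-29790750 (plus strand), KIF20A at chr5:138178912-138179111 (plus strand), KIF23 at chr15:69414149-69414348 (plus strand) and KIF5B at chr10:32056426-32056625 (minus strand), all on GRCh38.p14.
KIF22: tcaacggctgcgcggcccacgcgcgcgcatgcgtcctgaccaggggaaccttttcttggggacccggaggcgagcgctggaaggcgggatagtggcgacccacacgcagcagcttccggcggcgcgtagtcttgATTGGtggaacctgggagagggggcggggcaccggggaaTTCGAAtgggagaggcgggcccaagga
KIF20A: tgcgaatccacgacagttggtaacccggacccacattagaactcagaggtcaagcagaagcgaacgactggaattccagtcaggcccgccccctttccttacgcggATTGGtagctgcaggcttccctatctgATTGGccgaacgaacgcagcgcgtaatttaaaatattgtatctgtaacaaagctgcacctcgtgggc
KIF23: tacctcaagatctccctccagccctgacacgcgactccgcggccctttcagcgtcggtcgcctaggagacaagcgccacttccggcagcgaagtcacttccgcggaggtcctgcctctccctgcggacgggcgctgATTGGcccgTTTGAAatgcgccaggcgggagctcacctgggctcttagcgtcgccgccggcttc
KIF5B: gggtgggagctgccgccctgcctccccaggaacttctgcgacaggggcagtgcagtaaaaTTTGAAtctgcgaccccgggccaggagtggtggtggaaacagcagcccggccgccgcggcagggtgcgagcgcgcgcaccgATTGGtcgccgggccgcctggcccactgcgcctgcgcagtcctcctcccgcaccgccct

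The KIF22 promoter holds a CCAAT box followed by a CHR 39 bases further on, counted between their first bases. In KIF23 the distance is 9 bases. KIF20A holds 2 CCAAT boxes and no CHR, and in KIF5B the CHR comes before the CCAAT box. In KIF24, the other non-mitotic kinesin with both, a CHR follows a CCAAT box at 48 bases. The order of the motifs was examined after the matches were seen. In 10 of the 10 mitotic kinesins with both, a CHR lay on the 3′ side of a CCAAT box, at a median of 29.5 bases and a range of 9 to 122. The 10 include KIF4A and its copy KIF4B, each at 24 bases, which may not be independent. Of the 2143 genes with both among all promoters, this order was found in 53.9%, at a median of 59 bases. Among the 651 of them that passed the filter, it was found in 56.1%, at a median of 55 bases. KIF2C, at a log2 ratio of -2.07, had neither motif in this window. The non-mitotic kinesins with both motifs were KIF24, at a log2 ratio of -0.86 (-0.42 with 1 added to each FPKM), and KIF5B, at 0.51. Whether the motifs go with the ratios was not tested.

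**Figure D5:**
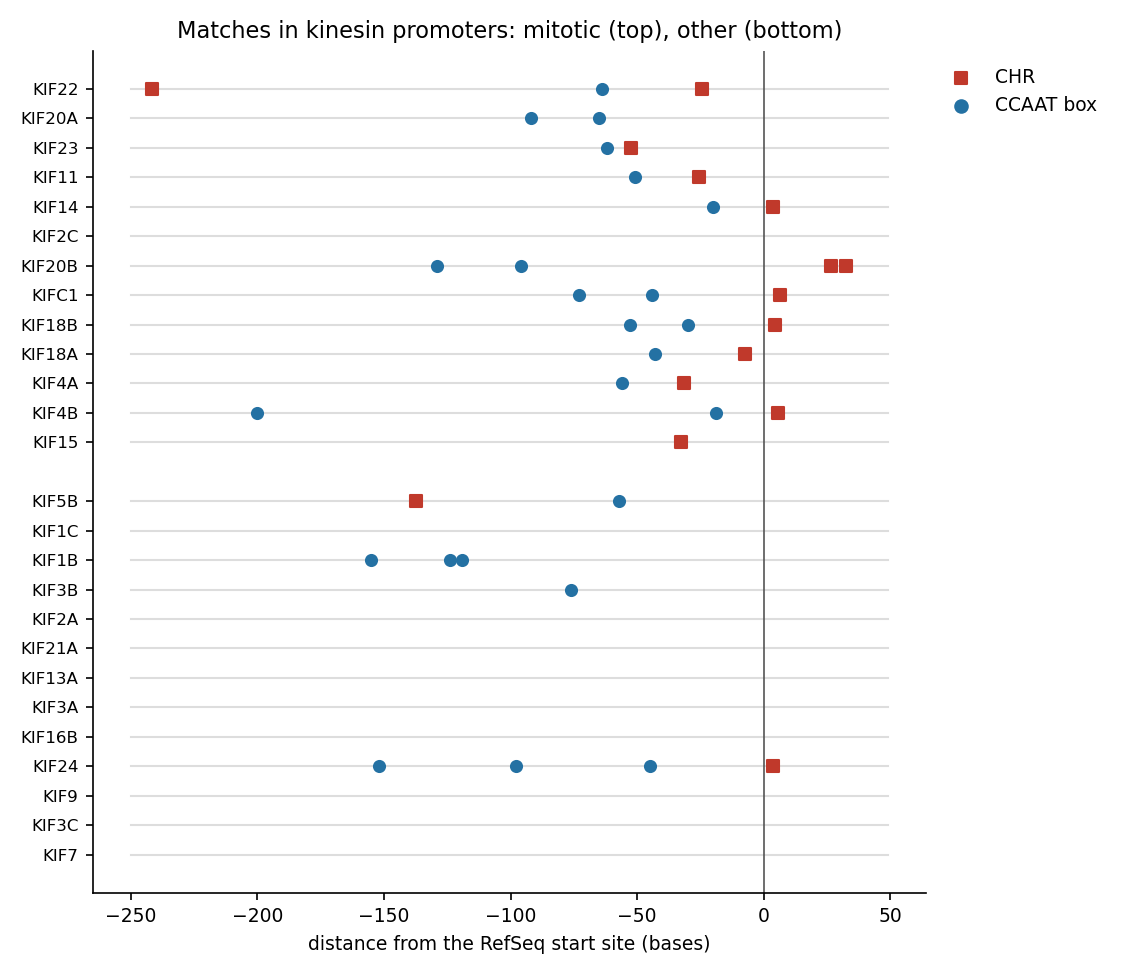
Positions of CHR (red squares) and CCAAT box (blue circles) matches, as the distance in bases from the RefSeq start site, in the promoters of 13 mitotic (top) and 13 other (bottom) kinesins that passed the filter, each ordered by siNT FPKM. Matches in all start sites of a gene are drawn; 11 of the 13 mitotic and 2 of the 13 other kinesins hold a CHR.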

How the data were processed

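Poly(A)+ RNA of MCF10A cells was sequenced as single-end reads. Per the submitters' processing notes and the study's methods, the authors worked in Partek Flow, with Bowtie 2 for alignment to UCSC hg19 and Cufflinks for quantification. The deposited table gives 1 FPKM per group and locus for 41656 loci. Its columns of the authors' log2 fold change, test statistic, p-value and q-value compare the groups and were not used. Listed starts were raised by 1 to count from 1.

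The symbol's locus with the highest mean FPKM was kept, and log2 ratios were computed with no pseudocount. A call needed an FPKM of 1 or more in the higher group and a 2-fold difference. Every kinesin that passed was named, with PAX9 and the 2 lowest and 2 highest genes of each other list, apart from 1 gene that is not reported here. The members and lists were chosen with earlier results of these data known. Gene spans came from GENCODE on GRCh37 and promoters from RefSeq. The calls were tested on simulated data with planted ratios, which checks the calculation and says nothing about error in the values here. Python 3.11.15, pandas 2.3.3, numpy 2.4.6, matplotlib 3.10.9 and blastn 2.17.0 (word size 28) were used.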

Additional observations from a re-analysis of the deposited data

How the results depend on the processing

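Without values of single samples, no error was computed and leaving out each replicate was not run. No paired analysis was possible because the result comes from no test and the columns carry no replicate number. The table gives no read counts per gene, which limits the genes near an FPKM of 1 most.

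The main counts were 14 kinesins at least 2-fold lower and 2 at least 2-fold higher. With an FPKM of 5 or more required in the higher group, 9 were lower and 0 were higher, since fewer genes entered. At 4-fold, 4 were lower and 1 was higher, and at 1.5-fold, 5 were higher. The count of higher genes was 0 with 1 added to each FPKM, 0 with an FPKM of at least 1 in both groups, and 4 with no filter. It was 1 without the genes whose locus spans another coding gene. With KIF4B left out, 13 were lower and 2 were higher. Both of these settings were chosen after seeing the data. In the other settings each count stayed within 1.5 times its main value. The median of the mitotic kinesins ran from -1.70 to -1.20 and that of the other kinesins from 0.32 to 0.51. Over 7 settings, 0 of 100 values of the 16 called kinesins changed sign. Of 98 values of the 15 others, 1 did, that of KIF2A after centring (-0.03 to 0.03). In all, 6 of the 198 values moved by 1.5-fold or more, each with 1 added to each FPKM.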
